A study of Arabidopsis thaliana with 8 samples.

Results

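Of the 43603 Arabidopsis probes on the array, 66 (0.151%) gave a signal well above background in C24 wild type and in both ros1-1 hda6 double mutants, and in the ros1-1 single mutant on neither array. These probes were chosen by the detection flag that the scanner software sets for each spot: it had to be set on both C24 arrays and on all 4 hda6 arrays, and to be unset on both ros1-1 arrays. Each of the 66 probes is a single spot, and 45 of them read 44 annotated protein-coding genes. The flags fix the order of ros1-1 against the other genotypes, so every difference of a member from ros1-1 is given below as a description without a test. The differences among C24, hda6-9 and hda6-10 were not themselves part of the rule and were tested. The rule still bears on them, because it asks for a dim signal in ros1-1 and only for a signal over the limit elsewhere. It can thus favour probes with C24 near the limit and hda6 far above it.

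Total RNA came from seedlings that were 12 days old and had spent 1 day at 4 °C before harvest. The wild type was the C24 accession carrying the luciferase reporter RD29A::LUC and the kanamycin resistance gene 35S::NPTII on 1 transgene. The ros1-1 mutant was in that same transgenic background, and both double mutants, ros1-1 hda6-9 and ros1-1 hda6-10, carried ros1-1 in addition to their hda6 mutation; they are called hda6-9 and hda6-10 here. In hda6-9 a T-DNA lies close to the stop codon of HDA6, and hda6-10 carries a small deletion in the first exon. Each of the 4 genotypes was read on 2 one-colour Agilent arrays, which GEO describes as biological replicates, and each hda6 allele is 1 mutant line without an HDA6 wild-type partner other than ros1-1.

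ROS1 is a DNA glycosylase that cuts 5-methylcytosine out of DNA and so removes methylation from promoters, and in its absence some transgenes and endogenous loci become silenced. HDA6 is a histone deacetylase that takes acetyl groups off histone tails and is needed for silencing of transposons, repeats and some genes, together with DNA methylation.

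Levels are given as log2 of the processed spot intensity relative to the 75th percentile of the same array, so that 0 is a bright probe and a step of 1 is a doubling. The 75th percentile lay between 2004 and 3681 intensity units, between 77.2% and 80.6% of spots were well above background, and the arrays of a genotype correlated across probes with r between 0.990 and 0.993. The weakest detected probe of an array lay between -8.82 and -8.09, and the limits of the ros1-1 arrays, -8.62 and -8.80, were lower than those of the 4 hda6 arrays. HDA6 itself read -0.27 ± 0.04 (SD, n = 2) in C24, -0.18 ± 0.02 in ros1-1, 0.87 ± 0.04 in hda6-9 and -1.77 ± 0.01 in hda6-10. ROS1 read 0.65 ± 0.02 in C24 and 0.43 ± 0.13 in ros1-1, and its level does not report on the ros1-1 lesion. The 4 shoot markers were bright on all 8 arrays, and no marker of shoot, root, seed or flower was among the members. The summed level of the 3 seed markers ran from -5.62 to -0.33 on the C24 arrays and from -0.47 to 0.90 in ros1-1. It ran from -4.04 to -0.20 in hda6-9 and from -0.63 to 0.65 in hda6-10, and its part in the results was not tested. Of the 5 root markers, the root hair regulator RHD6 was called lower in hda6-9 than in C24 (-1.91, adjusted p = 0.0078 from limma) and lower than in ros1-1 in both hda6-9 (-2.22, adjusted p = 0.0042) and hda6-10 (-1.27, adjusted p = 0.026). The root hair genes COBL9 and EXPA7 each differed by -1.31 between hda6-9 and C24 (adjusted p = 0.21 and 0.43), and the summed level of the root markers, which is set by the bright genes SHR and SCR, lay between 1.04 and 1.23 on all 8 arrays. The part of these markers in the results was not tested.

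Absence of the flag in ros1-1 did not mean absence of signal, and in whole seedlings fewer cells with a transcript and less of it per cell cannot be told apart. A less strict flag, for a signal significantly above the local background, was set on at least 1 ros1-1 array for 61 of the 66 members. The median member read -7.81 in C24, -9.30 in ros1-1, -6.51 in hda6-9 and -6.20 in hda6-10, whereas the median tested probe read between -1.48 and -1.45 in the 4 genotypes. The members are thus dim probes, and in 36 of them the C24 mean lay within 1 log2 unit of the limit of detection. The lowest of the 6 arrays with the flag exceeded the higher ros1-1 array by 0.03 to 5.06 log2 units, with a median of 1.19 and by more than 1 in 37 members. Nearest inside the limit were AT3G60960, 0.05 above it on C24 replicate 2, the kelch-repeat gene AT5G40680, 0.06 above it on hda6-9 replicate 1, and AT5G40040, a gene for an acidic ribosomal protein, 0.07 above it on hda6-10 replicate 2. Nearest outside were AT4G18350, AT2G27250 and AT1G50770, each of which lacked the flag on 1 C24 array at a signal between -0.03 and 0.01 of the limit. In all, 158 probes departed from the rule on exactly 1 array, 67 of them because ros1-1 replicate 2 carried the flag and 43 because C24 replicate 2 did not.

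**Figure D1:**
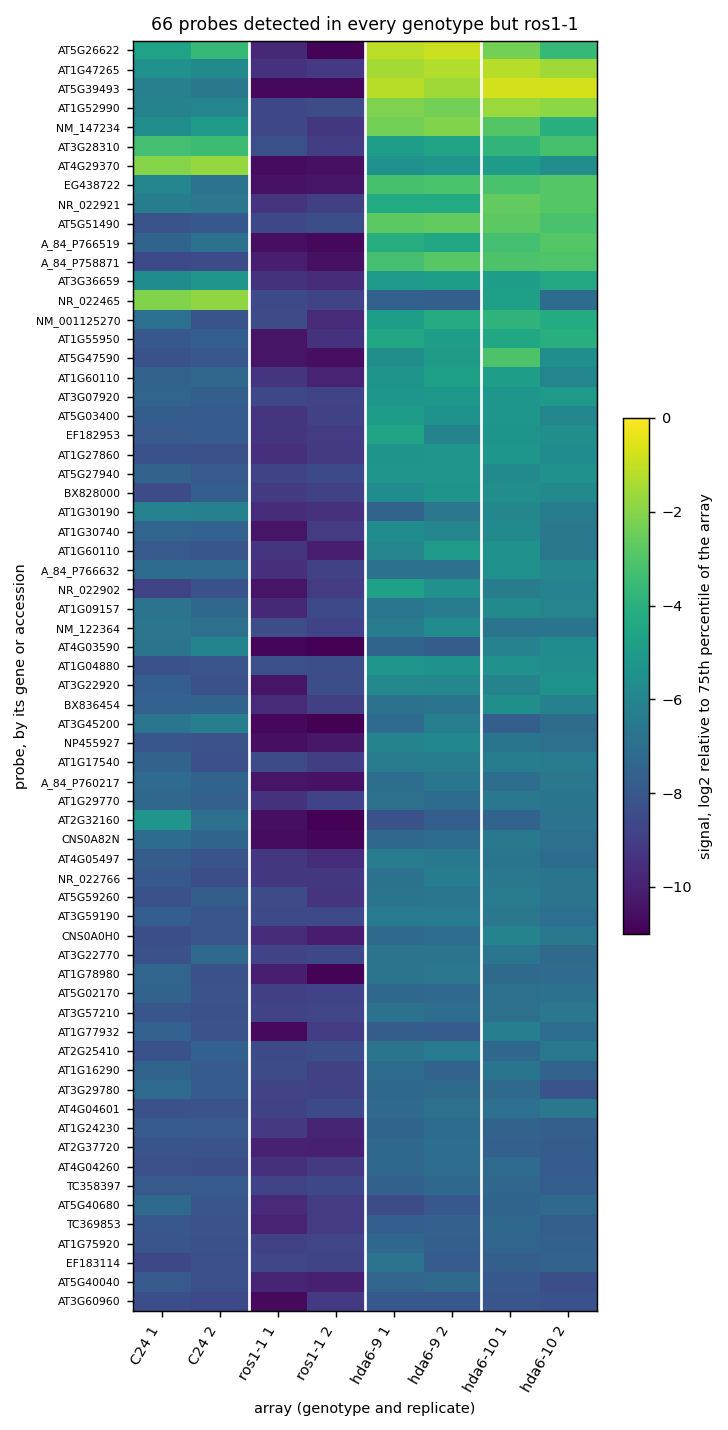
Level of each of the 66 probes (rows, by gene or by accession) on each of the 8 arrays (columns, by genotype and replicate), coloured by log2 signal relative to the 75th percentile of the array; rows are sorted by the mean of C24 and hda6 over the ros1-1 limit. Both ros1-1 columns are dark throughout, with genotype means between -10.90 and -8.34, while the hda6 columns are brighter than the C24 columns in most of the upper rows, AT4G29370, AT3G28310 and NR_022465 being the exceptions there.

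Because no member carried the flag in ros1-1, a ratio to ros1-1 is given as a lower bound, set against the higher of the limit and the probe's own signal on each ros1-1 array. That signal was under the limit on both ros1-1 arrays in 42 members and over it on 1 array in 18 and on both in 6, and in these 6 the bound is the measured ratio. C24 exceeded ros1-1 by at least 1.83-fold in the median member, by more than 2-fold in 29, by more than 4-fold in 15 and by more than 16-fold in 4. The corresponding median was at least 4.26-fold in hda6-9 and at least 5.69-fold in hda6-10, with 36 and 40 members above 4-fold. With a normexp background correction these medians were 1.02-fold in C24, 1.37-fold in hda6-9 and 2.01-fold in hda6-10. The plot of the named genes by array shows 19 genes, those of the 20 annotated member probes that stood highest over ros1-1 in the other genotypes.

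AT4G29370, which encodes a kelch-repeat protein, was the member with the highest level in C24. It read -1.86 ± 0.20 (SD, n = 2) in C24, -10.63 and -10.52 in ros1-1, -5.42 and -5.26 in hda6-9, and -4.98 and -5.61 in hda6-10. Its C24 level was at least 116-fold over ros1-1, and its level in each allele was at least 10.4-fold over it, so the double mutants lay between the wild type and ros1-1 without overlapping either. AT3G28310 followed a related order, with -3.27 and -3.45 in C24, -8.31 and -9.01 in ros1-1, -4.88 and -4.59 in hda6-9, and -3.80 and -3.20 in hda6-10. The hda6-10 arrays enclosed the C24 arrays for this gene, and C24 was at least 36.6-fold over ros1-1.

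AT5G26622 was detected strongly in C24 as well, but was highest in hda6-9. It read -4.66 and -3.64 in C24, -9.71 and -10.88 in ros1-1, -1.13 and -0.90 in hda6-9, and -2.31 and -3.63 in hda6-10. C24 was at least 23.7-fold, hda6-9 at least 208-fold and hda6-10 at least 53.5-fold over ros1-1. AT1G47265 read -5.42 and -5.78 in C24, -9.39 and -9.19 in ros1-1, -1.48 and -1.27 in hda6-9, and -1.17 and -1.55 in hda6-10. AT5G39493 read -6.23 and -6.61 in C24, -10.75 and -10.76 in ros1-1, -1.18 and -1.58 in hda6-9, and -0.77 and -0.72 in hda6-10, the last of these at least 250.1-fold over ros1-1. In both genes the 4 hda6 arrays lay close together and far above C24, which in turn lay above ros1-1.

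AT5G51490, a gene for a pectin methylesterase, an enzyme that modifies cell wall pectin, was near the limit in both C24 and ros1-1. It read -8.17 and -7.99 in C24, -8.63 and -8.35 in ros1-1, -2.76 and -2.66 in hda6-9, and -2.78 and -3.17 in hda6-10. The C24 arrays were above the ros1-1 arrays by less than 0.2 log2 units at the nearest pair, which sufficed for the flag in C24 but gave a bound of only 1.33-fold. AT1G04880, which encodes a DNA-binding protein with ARID and HMG domains, was of the same kind, with -8.23 and -8.12 in C24, -8.32 and -8.36 in ros1-1, and -5.61 to -5.28 over the hda6 arrays. For members such as these, the double mutants stood apart from both C24 and ros1-1, and the wild type differed little from ros1-1.

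**Figure D2:**
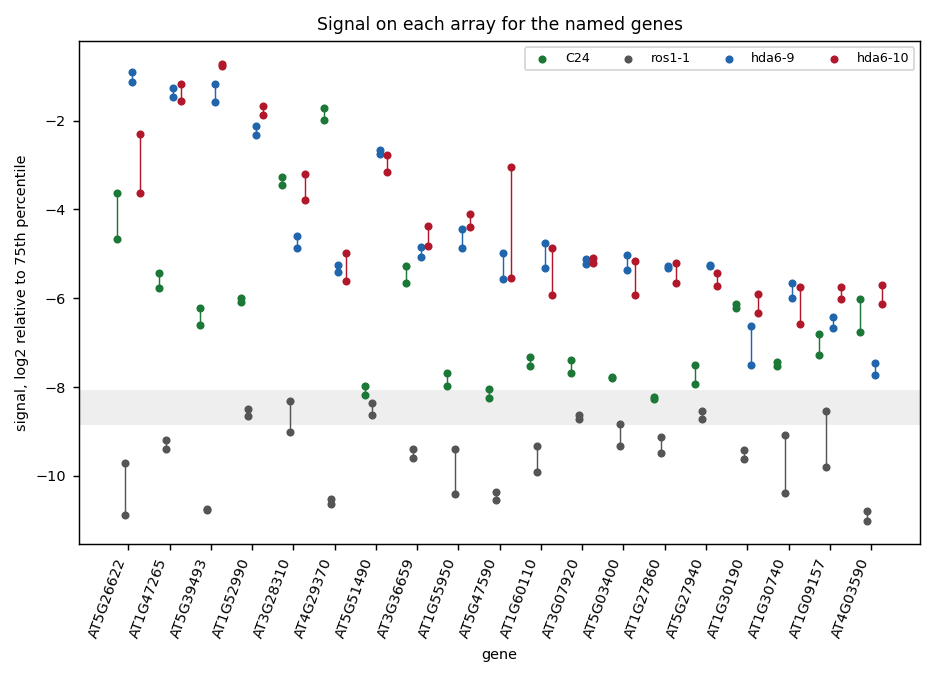
Log2 signal relative to the 75th percentile (vertical axis) on each of the 2 arrays of C24, ros1-1, hda6-9 and hda6-10 for the 19 named genes (horizontal axis); a line joins the arrays of a genotype, and the grey band spans the detection limits of the 8 arrays, -8.82 to -8.09. C24 points lie above the hda6 points for AT4G29370, within the band or at its upper edge for AT5G51490 and AT1G27860, and between ros1-1 and hda6 for AT1G47265, AT5G39493 and AT1G52990.

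Whether the members returned to the wild-type level in the double mutants was asked by comparing each allele with C24. Their levels were on the whole above it: the mean of the 4 hda6 arrays was higher than the C24 mean in 58 of the 66, with a median difference of 1.24 log2 units. By allele, hda6-9 was above C24 in 58 members and hda6-10 in 59. Over all tested probes this was so in 17947 of 35391 and in 18617 of 35392. In hda6-9, 33 of the 66 members were called higher than C24 and 4 (6.06%) lower, where a call needs more than a 2-fold difference and a Benjamini-Hochberg adjusted p below 0.05 from limma. Over all tested probes 4.02% were called higher and 2.04% lower in that comparison. In hda6-10, 31 (47.0%) were called higher and 2 (3.03%) lower, against 3.65% and 1.09% of all tested probes. The median difference from C24 was 1.17 in hda6-9 and 1.26 in hda6-10, beside 0.01 and 0.02 over all tested probes. Of the probes detected on all 6 C24 and hda6 arrays, whatever their ros1-1 signal, 2.88% were called higher in hda6-9 and 2.46% in hda6-10. The median tested probe was far brighter than the median member, and no set matched in level was compared. How far the choice of members shapes these shares was not tested. Both comparisons use the same C24 arrays, and C24 was on a slide of its own, so that slide and genotype cannot be told apart in them. With a normexp background correction, 15 members rather than 33 were called higher in hda6-9 and 22 rather than 31 in hda6-10, and without C24 replicate 2 hda6-10 had 17.

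The arrays of hda6-9 lay entirely above those of C24 in 54 members and entirely below in 6, where 33.8% and 31.2% of all tested probes did so. For hda6-10 the counts were 54 and 3, beside 30.9% and 28.2% of the tested probes. Grouped by their calls, 27 members were higher than C24 in both alleles (2.90% of all tested probes), 10 in 1 allele, 4 were lower in at least 1 allele, and 25 were called in neither. For the other groups the share over all tested probes was not counted, so their counts only describe the members. The plot of allele level against C24 level places most members above the line of equal level.

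**Figure D3:**
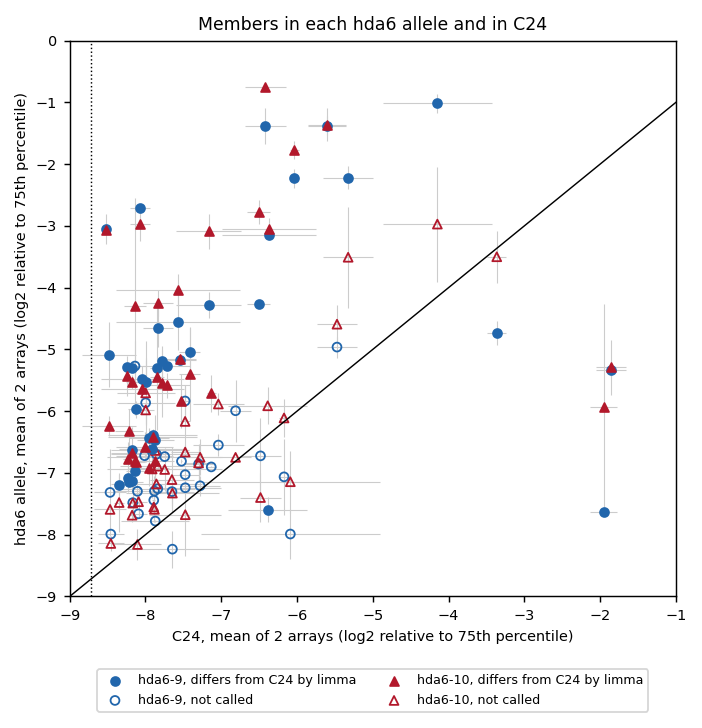
Mean log2 signal of the 66 members in hda6-9 (circles) and hda6-10 (triangles) on the vertical axis against C24 on the horizontal axis, each the mean of 2 arrays with SD bars; filled symbols were called different from C24 by limma, the solid line marks equal levels, and the dotted line the mean detection limit of C24. Most points crowd at the left, within 1 log2 unit of the limit in C24 for 36 members, and lie above the line, whereas 2 members at the right, AT4G29370 and NR_022465, lie below it in both alleles.

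The 27 members higher in both alleles had a median of -7.87 in C24, and 18 of them were within 1 log2 unit of the C24 limit. Their changes ran from 2.10-fold to 44.2-fold in hda6-9 and from 2.05-fold to 51.1-fold in hda6-10. AT5G39493 rose by 5.04 ± 0.18 log2 units (SE; adjusted p = 6.4e-05, limma) in hda6-9 and by 5.68 (adjusted p = 4.3e-05) in hda6-10. AT5G51490 rose by 5.37 ± 0.17 (adjusted p = 4.7e-05) and 5.11 (adjusted p = 5.1e-05). AT1G47265 rose by 4.23 ± 0.19 (adjusted p = 0.00014) and by 4.24 (adjusted p = 0.00014). For each of these genes all 4 hda6 arrays were above both C24 arrays, and the calls held in every one of the 18 alternative settings run.

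AT1G52990, a member of the thioredoxin family, whose proteins reduce disulphide bonds, rose 14.0-fold in hda6-9 and 19.2-fold in hda6-10 over C24 (adjusted p = 4.7e-05 and 2.9e-05 from limma). It read -6.07 and -5.99 in C24, -8.64 and -8.48 in ros1-1, -2.12 and -2.33 in hda6-9, and -1.67 and -1.87 in hda6-10. AT1G55950 rose 9.04-fold and 12.0-fold (adjusted p = 0.0048 and 0.0036). AT3G07920, annotated as a translation initiation factor of the IF2/IF5 family, rose 5.18-fold and 5.23-fold (adjusted p = 0.00025 and 0.00026), from -7.40 and -7.69 in C24 to between -5.22 and -5.10 on the hda6 arrays. These 3 genes had no overlap between C24 and either allele.

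AT1G27860 rose 7.80-fold in hda6-9 and 7.06-fold in hda6-10 (adjusted p = 0.00055 and 0.00073). AT5G27940, which encodes WPP3, a protein with the WPP domain known for targeting to the nuclear envelope, rose 5.48-fold and 4.41-fold (adjusted p = 0.00098 and 0.0019). AT5G03400 rose 6.01-fold and 4.68-fold (adjusted p = 0.0053 and 0.011). AT1G04880, read above as near the limit in C24, rose 7.32-fold and 6.27-fold (adjusted p = 4.7e-05 and 5.5e-05). Also in this group were the F-box gene AT3G59190, with 2.64-fold and 2.08-fold (adjusted p = 0.005 and 0.016), and the kinase gene AT1G17540, with 2.87-fold and 2.79-fold (adjusted p = 0.029 and 0.039). With the normexp correction, the hda6-9 call was lost for AT3G07920, AT5G03400, AT1G27860, AT5G27940, AT1G04880, AT3G59190 and AT1G17540. The hda6-9 call of AT1G17540 was lost in 7 of 18 alternatives and its hda6-10 call in 11. The hda6-10 call of AT3G59190 was lost in 6 of 18 and that of AT5G03400 in 2.

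AT1G60110, which encodes a lectin of the jacalin family, was the only gene with 2 member probes. The first read -7.52 and -7.32 in C24, -9.33 and -9.90 in ros1-1, -5.32 and -4.76 in hda6-9, and -4.87 and -5.94 in hda6-10. The second read -7.92 and -8.08 in C24, -9.28 and -10.07 in ros1-1, -6.01 and -5.06 in hda6-9, and -5.38 and -6.58 in hda6-10. The order of the genotypes was the same on both probes, and all hda6 arrays were above all C24 arrays on each. In hda6-9 the changes from C24 were 5.21-fold (adjusted p = 0.019) and 5.51-fold (adjusted p = 0.034), and in hda6-10 4.03-fold (adjusted p = 0.038) and 4.05-fold (adjusted p = 0.07), so the last was not called. The hda6-9 call was lost in 5 of 18 alternatives on the first probe and in 8 on the second. The hda6-10 call of the first probe was lost in 11 of 18. Without C24 replicate 1 all of these calls were lost.

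Of the 10 members called in 1 allele, 6 were called in hda6-9 and 4 in hda6-10, which does not show that the alleles differ there. AT5G26622 was 8.78-fold above C24 in hda6-9 (adjusted p = 0.028, a call lost in 5 of 18 alternatives, at up to 0.14 without C24 replicate 1) and 2.26-fold in hda6-10 (adjusted p = 0.28), and hda6-10 minus hda6-9 was -1.96 log2 units (adjusted p = 0.13). AT5G47590, a small heat shock protein of the HSP20 family, read -8.24 and -8.03 in C24, -10.36 and -10.53 in ros1-1, -5.56 and -4.98 in hda6-9, and -3.06 and -5.54 in hda6-10. It was called in hda6-10 alone, at 14.3-fold (adjusted p = 0.037), although its arrays in that allele differed by more than those of hda6-9. That call was lost in 10 of 18 alternatives, at an adjusted p of up to 0.15 without C24 replicate 1. Among the others were TBL15 (AT2G37720), of a family that acetylates cell wall polysaccharides, at 2.06-fold in hda6-9 (adjusted p = 0.0041, lost in 3 of 18 alternatives), and the lectin receptor kinase gene AT5G59260, whose hda6-10 call was lost in 14.

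Higher in C24 than in at least 1 allele were 4 members. AT4G29370 was 11.2-fold lower in hda6-9 (-3.48 ± 0.22, SE; adjusted p = 0.00057) and 10.8-fold lower in hda6-10 (-3.43; adjusted p = 0.00064) than in C24, and both calls held in all 18 alternatives. AT3G28310 was 2.59-fold lower in hda6-9 (adjusted p = 0.037), a call lost in 7 of 18 alternatives, among them without C24 replicate 1. In hda6-10 its difference from C24 was -0.14 ± 0.29 (adjusted p = 0.8). AT4G03590 was 2.31-fold lower in hda6-9 (adjusted p = 0.044), a call lost in 12 of 18 alternatives. The probe for NR_022465, a noncoding RNA record without a gene in the annotation used and named here after its values were seen, read -2.08 and -1.82 in C24, -8.57 and -8.73 in ros1-1, -7.60 and -7.65 in hda6-9, and -4.75 and -7.12 in hda6-10. It was 51.2-fold lower in hda6-9 than in C24 (adjusted p = 0.0072) and 15.8-fold lower in hda6-10 (adjusted p = 0.027, a call lost in 7 of 18 alternatives, at up to 0.12 without C24 replicate 2), and it stood at least 104-fold over ros1-1 in C24 but only at least 2.03-fold in hda6-9. In these 4 members C24 read between -6.39 and -1.86 on average, well over the limit.

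The remaining 25 members were called in neither allele against C24, and 19 of them had an annotated gene. Their C24 means ran from -8.47 to -5.47, and the mean of the hda6 arrays was above C24 in 21, with a median difference of 0.45. AT3G36659 read -5.66 and -5.28 in C24, -9.39 and -9.59 in ros1-1, -5.08 and -4.84 in hda6-9, and -4.82 and -4.37 in hda6-10. Its difference from C24 was 0.51 ± 0.21 (SE; adjusted p = 0.15) in hda6-9 and 0.88 (adjusted p = 0.056) in hda6-10. AT1G30190 read -6.13 and -6.22 in C24, -9.61 and -9.42 in ros1-1, -7.50 and -6.63 in hda6-9, and -5.90 and -6.33 in hda6-10, where the hda6-10 arrays enclosed those of C24. AT1G09157 differed from C24 by 0.49 ± 0.41 (adjusted p = 0.45) in hda6-9 and by 1.16 (adjusted p = 0.15) in hda6-10.

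Other genes of this group included AT1G30740, AT2G32160, AT3G29780 and SRF5. AT1G30740, of the berberine bridge enzyme family of oxidases, read -7.43 and -7.52 in C24, -10.39 and -9.08 in ros1-1, and between -6.59 and -5.67 on the hda6 arrays, which were all above C24, with adjusted p of 0.076 and 0.15. AT2G32160, annotated as a methyltransferase, read -5.25 and -6.92 in C24 and -10.55 and -11.02 in ros1-1, and its difference from C24 was -1.90 ± 0.58 in hda6-9 (adjusted p = 0.085). AT3G29780, a gene for the RALF-like peptide RALFL27, differed from C24 by 0.24 ± 0.35 in hda6-9 and -0.20 in hda6-10. SRF5 (AT1G78980), a STRUBBELIG-family receptor kinase, differed by 1.16 ± 0.35 (adjusted p = 0.085) and 0.68 (adjusted p = 0.28). With 2 arrays a genotype, these values do not show equal levels.

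The alleles were compared with each other in the same limma fit. Among the members, 2 (3.03%) were called higher in hda6-10 than in hda6-9 and 0 lower, beside 1.43% and 0.54% of all tested probes. At an unadjusted p under 0.05 with the same change, 5 were higher and 2 lower, beside 3.18% and 1.04% of all tested probes. The median difference was 0.002 log2 units, and it was above 0 in 33 members. The hda6-10 arrays lay entirely above those of hda6-9 in 21 members and entirely below in 15, beside 25.9% and 29.5% of all tested probes. The probe for NR_022921, a noncoding RNA record without an annotated gene, read -4.26 and -4.27 in hda6-9 and -2.64 and -2.91 in hda6-10, a difference of 1.49 ± 0.17 (SE; adjusted p = 0.024, limma), and -6.40 and -6.62 in C24 and -9.33 and -8.91 in ros1-1. AT4G03590 read -7.45 and -7.74 in hda6-9 and -6.12 and -5.70 in hda6-10, a difference of 1.68 ± 0.28 (adjusted p = 0.039), beside -6.76 and -6.02 in C24 and -10.80 and -11.01 in ros1-1. Both calls were lost with slide as a fixed block (adjusted p = 0.23 for NR_022921 and 0.48 for AT4G03590), with the replicate block, without hda6-10 replicate 1 and without either hda6-9 array. In all, NR_022921 lost its call in 5 of 19 alternatives and AT4G03590 in 11. hda6-10 was thus the allele nearer to C24 for AT4G03590 and the allele farther from C24 for NR_022921.

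The array holds 14 further probes for 12 of the member genes, and 8 of these probes had their lowest genotype mean in ros1-1. The share of all probes with that order was not counted, so the 8 only describe these probes. A probe with the flag pattern of the members is itself a member, so by definition the 14 lack that pattern. For AT5G51490 the second probe read -9.19 and -9.14 in C24, -9.54 and -9.52 in ros1-1, -4.15 and -3.97 in hda6-9, and -4.44 and -4.64 in hda6-10, with the flag on the hda6 arrays only. For AT3G60960, 1 of 2 further probes was detected on all 8 arrays and read -6.11 and -6.21 in C24, -7.68 and -7.85 in ros1-1, and -5.34 to -4.53 on the hda6 arrays, so that the genotypes had the order of the member probe without loss of the flag in ros1-1. The other further probe, A_84_P611583, read -9.51 and -8.78 in C24, -10.63 and -9.94 in ros1-1, -8.15 and -7.81 in hda6-9, and -6.49 and -7.40 in hda6-10, so that hda6-10 was above hda6-9, the reverse of the member probe. The other probe of AT1G30740 had the order of its member probe, with -6.79 and -6.84 in C24, -7.65 and -7.53 in ros1-1, and -5.89 to -4.86 in the alleles. The other probe of AT3G59190 was detected on all 8 arrays, and C24 differed little from ros1-1 on it. It read -6.911 and -6.885 in C24, -7.093 and -6.918 in ros1-1, and -5.815 to -5.3 in the alleles.

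The probes of AT1G52990 disagreed. Its other probe was bright on every array, with -0.57 and 0.04 in C24, -0.25 and 0.05 in ros1-1, 0.48 and 0.08 in hda6-9, and 1.06 and -0.07 in hda6-10, so the genotypes overlapped. The order of genotypes on the member probe was thus not seen on the other probe assigned to that gene. Which part of the gene each probe reads was not examined here, and the cause of the disagreement was not tested. The other probe of AT1G24230 carried the flag on 1 array only, of ros1-1, and had its highest mean there, -8.16 beside -9.43 in C24, -9.71 in hda6-9 and -10.12 in hda6-10. For AT1G17540, AT2G25410, AT5G51490 and A_84_P611583 of AT3G60960, the other probes lacked the flag on both C24 arrays as well as in ros1-1, and that of AT3G57210 carried it on 1 C24 array and not in ros1-1. Of the 14 further probes, 3 were detected on no array.

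**Figure D4:**
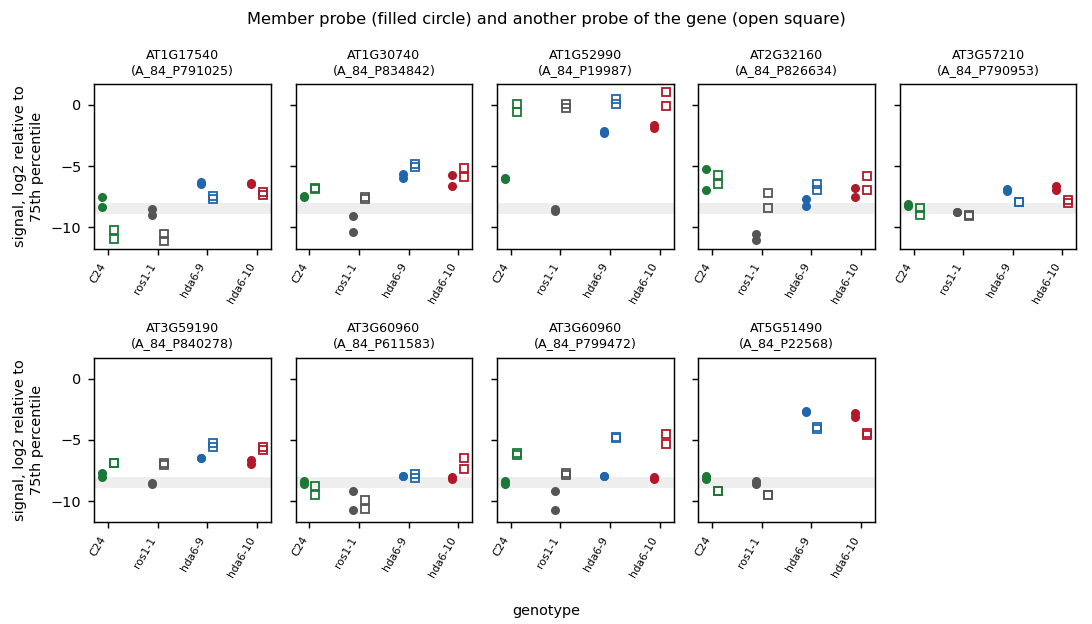
Log2 signal relative to the 75th percentile (vertical axis) on each array of the 4 genotypes (horizontal axis) for member probes (filled circles) and other probes of the same gene detected on at least 4 arrays (open squares, probe name above each panel); the grey band spans the detection limits. The probes follow each other in genotype order for AT5G51490, AT1G30740 and A_84_P799472 of AT3G60960, whereas hda6-10 is the highest on A_84_P611583 of that gene and the open squares of AT1G52990 lie between -0.57 and 1.06 in every genotype.

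What the members are was set beside the tested probes. Annotated protein-coding genes were read by 68.2% of the members and by 83.8% of the tested probes, and the rest were 10 ESTs, cDNAs or assembled transcripts, 3 mRNA and 4 noncoding RNA records without a match, and 4 probes without an accession. The 44 genes lay on all 5 chromosomes, with 16 on chromosome 1, 3 on chromosome 2, 10 on chromosome 3, 5 on chromosome 4 and 10 on chromosome 5, where the shares of tested genes were 26.4%, 15.4%, 19.8%, 15.1% and 23.4%. Among the unannotated members, the probe A_84_P758871, named here after its values were seen, read -8.53 and -8.50 in C24, -10.06 and -10.50 in ros1-1, -3.23 and -2.88 in hda6-9, and -3.09 and -3.04 in hda6-10. It had the largest rise from C24 to hda6-9 of all members, 44.2-fold (adjusted p = 5.1e-05 from limma).

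Neighbours were the nearest protein-coding genes with a probe on either side of a member gene, so genes without a probe were passed over. Each was read by its probe with the highest mean level, which favours detection. None of these 88 genes was itself a member, and 68 of them were detected on all 8 arrays. Of the 71 that were tested, 1 (1.41%) was called higher in C24 than in ros1-1, beside 0.342% of all tested probes. It was AT3G28320, next to AT3G28310, with 1.1 ± 0.11 (SD, n = 2) in C24, -3.26 ± 0.09 in ros1-1, -0.18 ± 0.09 in hda6-9 and 0.90 ± 0.42 in hda6-10 (adjusted p = 0.0022 for C24 against ros1-1). In both alleles 6 neighbours (8.45%) were called higher than in ros1-1, beside 3.35% of all tested probes. SKS2, next to the pectin methylesterase gene AT5G51490, read -4.94 ± 0.29 in C24, -3.98 ± 0.62 in ros1-1, -1.66 ± 0.13 in hda6-9 and -1.69 ± 0.18 in hda6-10. AT5G47600, next to the heat shock protein gene AT5G47590, read -6.25 ± 0.10, -5.74 ± 0.18, -2.24 ± 0.06 and -2.62 ± 0.62 in the same order of genotypes.

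Lists of genes of the pathways concerned held no member. All 9 genes of active DNA demethylation and all 17 of RNA-directed and maintenance DNA methylation were detected on all 8 arrays. Of the 17, 2 were called higher in hda6-9 than in C24, HDA6 and CLSY1, a chromatin remodeller of RNA-directed DNA methylation, and CLSY1 was also higher in hda6-10 (1.40 and 1.20 log2 units, adjusted p = 0.001 and 0.0021 from limma). Of the 9, 1 was called lower in hda6-9 than in C24, the demethylase gene DML3 (-1.09, adjusted p = 0.0018). Of 12 cold-regulated genes, 2 were called higher and 2 lower in hda6-9 than in C24, and 2 higher in hda6-10. Among these 12, GOLS3 was not tested. Over all tested probes, 4.02% were called higher and 2.04% lower than C24 in hda6-9, and 3.65% and 1.09% in hda6-10. The lists are short, so their counts only describe these genes. CBF1, a transcription factor of the cold response, read -5.09 ± 0.92 in C24, -8.41 ± 0.01 in ros1-1 and -4.90 ± 0.77 in hda6-10, but it read -8.05 ± 0.45 in hda6-9 and lacked the flag there. RD29A had its lowest mean in ros1-1 but carried the flag on all 8 arrays. It read -3.21 ± 1.72 in C24, -6.09 ± 0.21 in ros1-1, -4.55 ± 0.34 in hda6-9 and -0.355 ± 0.80 in hda6-10. Of 7 genes described as kept expressed by ROS1 or silenced by DNA methylation, RMG1 and FWA were detected on no array and not tested. Called higher than C24 in each allele were 2 of the others, the F-box gene SDC and QQS. DOGL4 was called lower in hda6-10 (-4.16, adjusted p = 0.033 from limma). DOGL4 was as low in ros1-1, with -3.30 ± 0.58 in C24, -7.49 ± 1.62 in ros1-1, -4.75 ± 0.05 in hda6-9 and -7.46 ± 0.79 in hda6-10. Its difference between C24 and ros1-1 was not called (adjusted p = 0.13 from limma).

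A larger set of 274 probes carried the flag in both alleles and in neither C24 nor ros1-1. Its median level was -6.08 in hda6-9 and -6.06 in hda6-10, close to the -6.51 and -6.20 of the members, and -10.4 in C24, where the members read -7.81. The reverse single losses were of other sizes, with 25 probes lacking the flag in C24 alone, 148 in hda6-9 alone and 14 in hda6-10 alone. These counts rest on detection limits and are given without a test.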

How the data were processed

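The authors labelled total RNA with Cy3, hybridized it to one-colour Agilent arrays and read the spots with Feature Extraction. The deposited values are intensity values on a linear scale, background-subtracted and detrended, without normalization between arrays, and the deposited combined matrix equals the background-subtracted signal. Here, outlier spots were left out (none of a member), processed signals were log2-transformed and centred on the 75th percentile of their array. A probe was tested if detected on both arrays of a genotype (35392 of 43603). With limma 3.58.1 in R 4.3.3, 1 model over all 8 arrays estimated a mean for each genotype (prior degrees of freedom 1.8), with Benjamini-Hochberg adjustment over all tested probes. A call needed more than a 2-fold difference and an adjusted p below 0.05. The model was checked on simulated data. The number of arrays limits the precision, and p-values measure only the spread between these arrays.

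The members, gene lists and tests were chosen with earlier results of these data known. Genes were named by rule: genes with 2 member probes, the 20 member probes with an annotated gene highest over the ros1-1 limit, the 5 largest called changes in each direction of each tested comparison without overlap, ROS1 and HDA6, the probes nearest the limit, and members of a list; other genes of each group were added as examples after their values were seen. RefSeq accessions gave gene names, chromosomes and gene order from TAIR10.1, whereas the array design refers to another build, so no coordinates are given. Hybridizations shared slides: both hda6-10 arrays with 1 ros1-1 array, 1 hda6-9 array with the other ros1-1 array, the second hda6-9 array alone, and both C24 arrays together. Alternatives were a normexp background (offset 50, on median spot and background signals, as mean spot signals were not used here), a median shift, quantile normalization, the combined matrix, no filter, outlier spots kept, only the genotypes compared, slide or replicate number as a block, no minimum change, other detection flags, and each array left out in turn. Promoter motifs were not analysed here.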

Additional observations from a re-analysis of the deposited data

Results flagged for a closer look

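By limma's test of the difference itself, 2 members were called different between the alleles, and neither call held in all alternatives. The probe for NR_022921 was higher in hda6-10 than in hda6-9 by 1.49 log2 units (standard error 0.17, adjusted p = 0.024), with both hda6-10 arrays above both hda6-9 arrays, and the cause was not tested. AT4G03590 was higher by 1.68 (standard error 0.28, adjusted p = 0.039), again with both hda6-10 arrays above both hda6-9 arrays. Its adjusted p ran from 0.034 to 0.48 over 19 alternatives. The call of AT4G03590 was lost in 11 of these and that of NR_022921 in 5 of 19 (adjusted p up to 0.23), both with slide as a fixed block, with the replicate block, without hda6-10 replicate 1 and without either hda6-9 array.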

How the results depend on the processing

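No named call changed direction: over 28 named calls and 505 refits, 430 kept the call and 75 lost it. Calls of members higher in hda6-9 than in C24 (33) fell to 15 with the normexp background and ran from 23 to 33 with 1 array left out. Lower calls (4) came to 2 with normexp, with no filter and with the replicate block, and ran from 2 to 3 with 1 array left out, with 2 without hda6-9 replicate 1. Higher calls in hda6-10 over C24 (31) ran from 17 without C24 replicate 2 to 28 with 1 array left out, with 20 without hda6-10 replicate 1. Lower calls (2) came to 1 with only the arrays compared, and to 1 or 2 with 1 array left out, 1 being the count without either array of C24, ros1-1 or hda6-9. Between the alleles, higher calls (2) came to 4 with normexp, 1 with quantile normalization, 1 with no filter, 1 with only the arrays compared, 0 with slide as a fixed block and 0 with the replicate block. They ran from 0 to 3 with 1 array left out, with 0 without hda6-10 replicate 1 or either hda6-9 array and 1 without ros1-1 replicate 1. Lower calls (0) came to 2 with quantile normalization and 1 with no minimum change. The median lower bound of C24 over ros1-1 (0.87) was 0.028 with normexp, 0.65 with quantile normalization and from 0.80 to 1.15 with 1 array left out. That of hda6 (2.23) was 0.67 with normexp, 1.89 with quantile normalization and 1.96 with the combined matrix, and ran from 2.06 to 2.36 with 1 array left out. The cause of these shifts was not tested. The rule gave 67 to 133 probes with 1 array left out, 133 without ros1-1 replicate 2 and 109 without C24 replicate 2. With the less strict flag it gave 54, of which 5 are among the 66. The replicate numbers did not pair the arrays (correlations of deviations from -0.38 to 0.06), so the replicate block rests on numbers alone. A fixed slide block could not be fitted for the C24 comparisons.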
